A study of Drosophila melanogaster with 16 samples.

Results

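The genes described here are 8 that early Drosophila embryos use to set aside and run neural stem cells: ac, l(1)sc, ase, wor, esg, scrt, nerfin-1 and pros. They were chosen by name for that role, with earlier results of these data known, out of 15682 genes in the deposited tables. Of the 8, 7 had a row in both tables. The current FlyBase ID of esg, which encodes a Snail family zinc finger protein, was not among the table IDs, so esg was not analysed here. All 7 were tested by the authors at both times, and no filter on low values removed any of them.

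In the neuroectoderm, proneural bHLH proteins encoded by the achaete-scute complex give clusters of cells the competence to become neuroblasts, and Notch signalling between neighbours restricts the fate to single cells. The neuroblast then expresses pan-neural genes such as ase, wor, scrt and dpn, divides asymmetrically, and passes the homeodomain protein Prospero to the smaller daughter, the ganglion mother cell. The Clamp protein recognises GA-rich DNA through its zinc fingers.

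RNA was sequenced from embryos of both sexes laid by MTD control mothers or by clamp RNAi mothers, all mated to yw males, and collected 0 to 2 hr or 2 to 4 hr after egg laying. Each of the 4 groups had 4 libraries, 16 in all. Both maternal genotypes carry germline Gal4 drivers (COG-Gal4:VP16, Gal4-nos.NGT and nos-Gal4-VP16), so the controls hold the drivers too. The clamp RNAi mothers carry 1 copy of each driver with a TRiP hairpin transgene at attP2, and an X chromosome marked y, sc and v that the control strain label does not list. The hairpin is driven in the mother's germline. The allele of sc on that X is not specified, and sc lies within the achaete-scute complex.

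The authors deposited 1 table per collection, comparing a condition B with a condition A. No header or label says which genotype either letter is, so the letters are kept. Clamp, the targeted gene, was 66.0-fold lower in B at 0-2 hr in the authors' deposited table and 38.85-fold lower at 2-4 hr, with a DESeq adjusted p of 2.62e-179 and one listed as 0, so B is the condition with less Clamp RNA. Levels below are the authors' mean normalized reads over both conditions, and differences are the authors' log2 of B over A. No values per library were used, so spread between libraries enters only through the deposited p-values, and the depth of each library is unknown. The labels name no separate crosses, so these p-values may measure technical spread. In bulk RNA, fewer cells of a type and less RNA per cell cannot be told apart.

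At 2-4 hr, pros was 3.43-fold lower in B, and it was the 1 gene of the 7 called by the authors' deposited table at a DESeq adjusted p under 0.05. Over all 14245 genes tested at that time, 8.14% were called lower in B and 7.38% higher, 15.5% in all. With an adjusted p under 0.1, 2 of the 7 were called against 18.7% of all genes, and with at least 2-fold asked at 0.05, 1 of the 7 against 4.6%. The other 6 had deposited log2 values below 0 that did not pass the test, from -0.61 for ac to -2.10 for ase in the authors' deposited table. The median log2 of the 7 was -1.78, against -0.03 over 12806 genes with a finite log2.

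In the earlier collection none of the 7 was a DESeq call in the authors' deposited table, and l(1)sc, ase, wor and pros (4 genes) had an unadjusted p below 0.05. The share of all genes with an unadjusted p below 0.05 was not counted, here or for the lists below. Over all 13096 genes tested 5.61% were called lower in B and 5.56% higher, 11.2% in all. With an adjusted p under 0.1, 0 of the 7 were called against 13.9% of all genes, and with at least 2-fold asked at 0.05, 0 of the 7 against 2.32%. All 7 log2 values were below 0 there too, from -0.36 for ac to -3.38 for nerfin-1, with a median of -2.48 against -0.06 over 10963 genes. Calls of tools other than DESeq are not reported here.

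**Figure D1:**
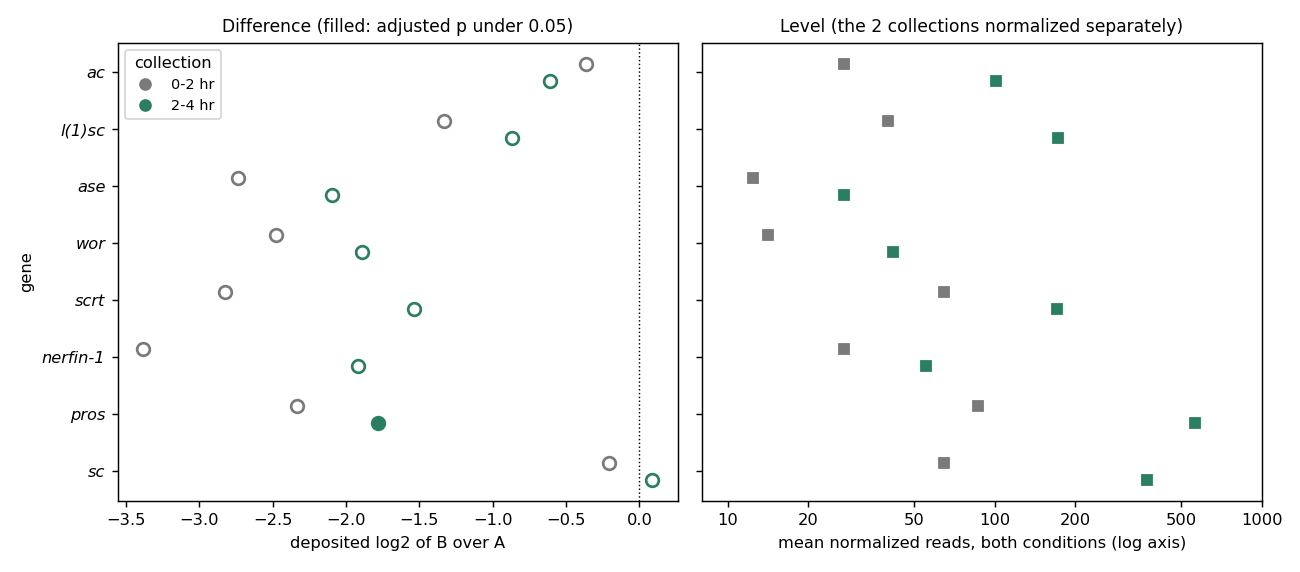
Left, deposited log2 of B over A for the 7 measured genes and for sc at each collection, filled where the adjusted p is under 0.05. Right, mean normalized reads over both conditions (log axis). All 7 genes lie left of 0 at both times and pros at 2-4 hr is the 1 filled point.

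The proneural genes had the smallest differences. The gene ac, a proneural gene of early neuroblasts and sensory organs, had a mean of 27.3 normalized reads at 0-2 hr and 101.0 at 2-4 hr. In the authors' deposited table its log2 was -0.36 and then -0.61, with DESeq adjusted p of 0.941 and 0.0882. The second is the smallest adjusted p among the uncalled tests of the 7 genes.

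For l(1)sc, the proneural gene with the widest early expression in the neuroectoderm, the means were 39.7 and 173 normalized reads. Its log2 of B over A was -1.34 at 0-2 hr and -0.87 at 2-4 hr in the authors' deposited table, with DESeq adjusted p of 0.119 and 0.105. This gene had the smallest unadjusted p of the 7 at 0-2 hr, at 0.0177.

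The bHLH gene ase marks neural precursors as a class. It was the scarcest of the 7, with means of 12.4 normalized reads at 0-2 hr and 27.4 at 2-4 hr. The authors' deposited table gave ase log2 values of -2.74 and -2.10, a 6.68-fold and a 4.28-fold lower mean in B, with DESeq adjusted p of 0.232 and 0.305. These folds are larger than those of ac and l(1)sc, and at 2-4 hr the adjusted p is larger than theirs too.

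The Snail family gene wor, which neuroblasts express, had means of 14.2 and 41.5 normalized reads. By the authors' deposited table wor was 5.57-fold lower in B at 0-2 hr and 3.71-fold lower at 2-4 hr, with DESeq adjusted p of 0.216 and 0.333, so neither was a call.

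The zinc finger gene scrt, of neural precursors and young neurons, had means of 64.8 and 171 normalized reads, and the authors' deposited table gave it log2 values of -2.83 and -1.54 with DESeq adjusted p of 0.267 and 0.325. The nerfin-1 gene, which acts in the differentiation of neurons, had means of 27.4 and 55.4 normalized reads. Its mean was 10.4-fold lower in B at 0-2 hr and 3.78-fold lower at 2-4 hr in the authors' deposited table, with DESeq adjusted p of 0.250 and 0.369. It had the largest fold of the 7 at 0-2 hr and the largest adjusted p at 2-4 hr.

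The homeodomain gene pros was the most abundant of the 7 in reads, with means of 86.3 at 0-2 hr and 562 at 2-4 hr. At 0-2 hr it was 5.04-fold lower in B in the authors' deposited table without being called (DESeq adjusted p 0.193). At 2-4 hr it fell 3.43-fold, a log2 of -1.78 with a DESeq adjusted p of 1.82e-06 in the authors' deposited table. On the annotation used, its exons overlap those of lncRNA:CR46008 on the opposite strand, and no source used here says whether counting used strand.

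All 7 had higher means at the later collection. The tables were normalized separately, so the ratios are set side by side without a test. The mean over both conditions was 6.52 times higher at 2-4 hr for pros, 4.36 times for l(1)sc and 3.70 times for ac. It was 2.93 times higher for wor, 2.65 for scrt, 2.20 for ase and 2.02 for nerfin-1.

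Per kilobase of exon, on lengths of the BDGP6 annotation, the proneural genes were the highest at both times. The lengths merge all annotated exons of a gene and run from 917 bases for ac to 24892 for pros, so these orders depend on them. At 2-4 hr l(1)sc had 158 normalized reads per kilobase and ac 110.0, against 22.6 for pros, 18.9 for scrt, 18.7 for wor, 17.3 for nerfin-1 and 11.3 for ase. At 0-2 hr the order of the first genes was the same, with 36.2 for l(1)sc and 29.8 for ac, and pros was the lowest at 3.47. With no values per library, which neighbours in these orders differ beyond their spread was not tested.

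Most markers of later cell types lay below 0, like the 7, and their part in these values was not tested. Of all genes with a mean of at least 20, 51.1% lay below 0 at 0-2 hr and 50.6% at 2-4 hr. The folds are ratios of means, and a mean can be carried by 1 of its libraries. Some large folds had weak unadjusted DESeq p-values in the authors' deposited table. Examples are Gasp at 0-2 hr (p 0.1353 at 94.25-fold) and Tm2 at 2-4 hr (p 0.1315 at 137.0-fold). At 2-4 hr nerfin-1 had p 0.1069 at 3.78-fold, while pros had p 6.097e-08 at 3.434-fold. Of the 7 genes, 4 at 0-2 hr and 3 at 2-4 hr had an unadjusted p below 0.05. The share of all genes at that cutoff was not counted. Spread between libraries enters these p-values, but they do not show how many libraries carry the folds of the 7 genes or of these markers. An earlier separation into libraries, described with the processing, bears on this and is not reported as a result. Of 10 late muscle markers measured, 10 had a deposited log2 below 0 at each time, and the authors' deposited table put their medians at -2.82 and -4.94, with 0 DESeq calls and none at an unadjusted p below 0.05. Of the markers of late epidermis, gut and trachea, 7 of 7 tested were below 0 at 0-2 hr and 6 of 8 at 2-4 hr. The authors' deposited table put their medians over finite values at -5.50 and -5.00, also with 0 DESeq calls and none at an unadjusted p below 0.05. Over all genes, 11.2% were called at 0-2 hr and 15.5% at 2-4 hr. Cpr47Ea was listed at 0 at 0-2 hr, and Cpr65Ea was listed at 0 in B at both times. Of 8 late neuron markers, 7 were below 0 at each time, and the authors' deposited table put their medians at -3.17 and -2.16. Among them, Syx1A was called higher in B at 0-2 hr, against 5.56% of all genes. Its mean of 1301 normalized reads was the highest of the 8 at that time. The next highest there was elav, at 143.8. At 2-4 hr elav and nrv2 were called lower, against 8.14% of all genes.

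Markers of early embryos were present at both times, as the labelled stage asks. The gene zld, which encodes the main activator of the zygotic genome, had means of 14180 and 18190 normalized reads in the authors' deposited table. None of 6 early markers was a DESeq call at 0-2 hr, against 11.2% of all genes. The unadjusted p of 1 of them, bcd, was below 0.05. At 2-4 hr zld and osk were called lower in B and nullo higher, and the authors' deposited table put their log2 at -0.72, -0.61 and 0.51. Over all genes 8.14% were called lower in B at that time and 7.38% higher.

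**Figure D2:**
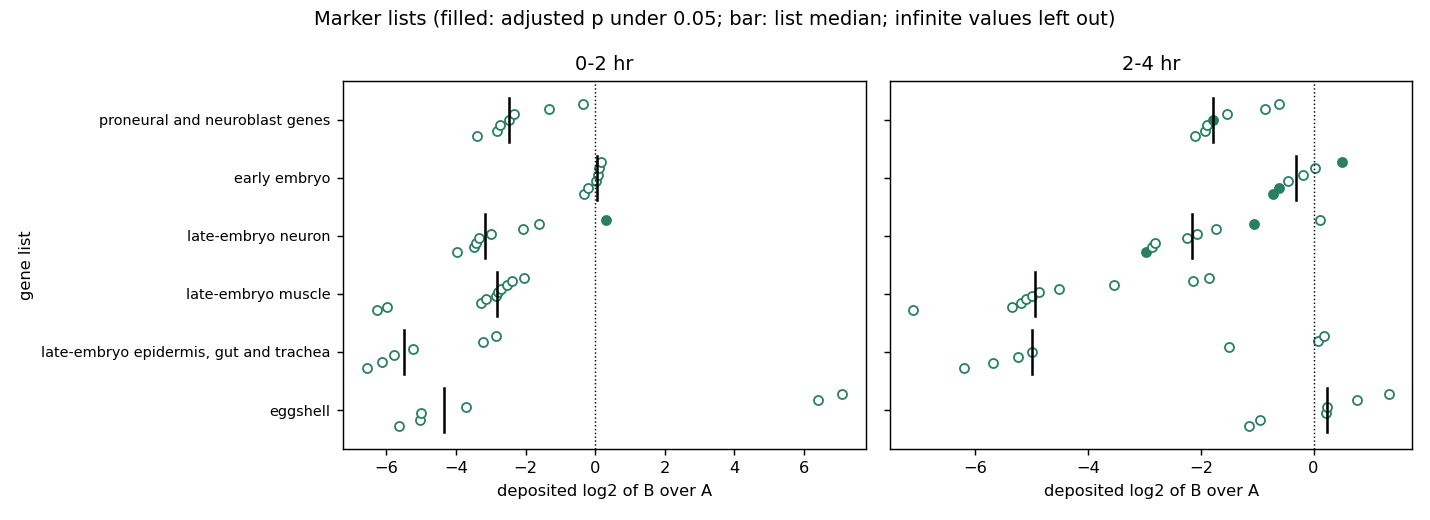
Deposited log2 of B over A for the 7 genes and for 5 marker lists at 0-2 hr (left) and 2-4 hr (right), filled where the adjusted p is under 0.05, with bars for list medians. The late muscle markers all lie below 0 with no filled point, at medians of -2.82 and -4.94.

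The bHLH genes ac, l(1)sc and ase lie with sc in a row on the X chromosome, between y and Cyp4g1. The proneural gene sc, between ac and l(1)sc and not one of the 8, had means of 64.8 and 372 normalized reads. The authors' deposited table put its log2 at -0.21 and then 0.09 (DESeq adjusted p 1.0 and 0.923). On the far side of ac, the pigmentation gene y rose in B at both times, at a log2 of 6.42 and then 3.94 in the authors' deposited table (DESeq adjusted p 6.19e-21 and 8.08e-32). The clamp RNAi mothers carry a marked y allele next to the complex, and TRiP insertions at attP2 generally carry a working copy of y as a marker, which the label does not list. The marked X chromosome, markers carried with the transgene and the lowering of clamp cannot be told apart for y, nor the first and the last for the other genes of this row.

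On the other side of ase, Cyp4g1 was not called at either time by the authors' deposited table, where its log2 was -2.12 and -2.25 (DESeq adjusted p 0.529 and 0.725). Its means were low, at 9.275 normalized reads at 0-2 hr and 11.65 at 2-4 hr. Farther along, svr was not called either, at a log2 of -0.03 and then -0.12 in the authors' deposited table. The neuronal gene elav fell 2.09-fold at 2-4 hr in the authors' deposited table, with a DESeq adjusted p of 0.0162, and its exons overlap those of arg and lncRNA:enrr. The gene CG32816 overlaps y, the bHLH genes and Cyp4g1, lies on the opposite strand of the bHLH genes, and shares no exon bases with them.

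**Figure D3:**
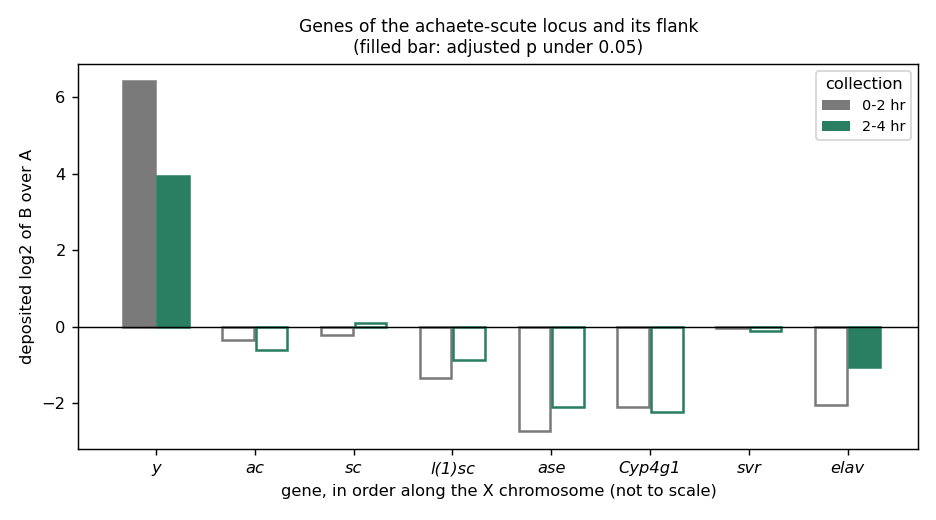
Deposited log2 of B over A for 8 genes of the achaete-scute row and its flank, in their order along the X chromosome and not to scale, at 0-2 hr and 2-4 hr. Filled bars have an adjusted p under 0.05, which holds for y at both times and elav at 2-4 hr.

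Further genes of neural development came from lists, with 66 measured, the flanking genes included. The authors' deposited table had 25 of these 66 called lower and 2 higher in B at 2-4 hr, against 8.14% lower and 7.38% higher over all genes. The same counts at 0-2 hr were 3 lower and 2 higher, with 5.61% and 5.56% over all genes. The median log2 of the 66 was -0.45 and then -0.77 over finite values. The lists were drawn up with earlier results of these data known, so whether their counts differ from those of other lists was not tested.

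Among 7 other proneural bHLH genes and their inhibitors, sc included, 2 were called lower and 1 higher in B at 2-4 hr. Over all genes 8.14% were called lower and 7.38% higher. The pan-neural repressor gene dpn fell 2.02-fold and emc, whose protein blocks proneural bHLH proteins, fell 1.41-fold in the authors' deposited table (DESeq adjusted p 9.27e-08 and 0.00627). The proneural gene amos, used in olfactory precursors, rose, at a log2 of 0.67 with a DESeq adjusted p of 0.000248 in the authors' deposited table. In the earlier collection 0 of these were DESeq calls, and none had an unadjusted p below 0.05.

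The SoxB and columnar genes have proteins that act throughout the neuroectoderm or divide it into columns. Of these genes, 5 of 5 were called lower in B at 2-4 hr, against 8.14% of all genes. Their log2 values in the authors' deposited table were -1.25 for SoxN, -0.96 for D, -1.24 for vnd, -1.63 for ind and -2.13 for Dr. The DESeq adjusted p were 0.000859, 0.000798, 1.34e-05, 0.0202 and 0.00800 in that order. None was a DESeq call at 0-2 hr, where 3, SoxN, D and Dr, had an unadjusted p below 0.05.

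The Snail family gene sna, which acts first in the mesoderm, was not called, and neither was CG12605. For sna the authors' deposited table gave -0.93 at 0-2 hr and -0.20 at 2-4 hr as log2, with DESeq adjusted p of 0.420 and 0.738.

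Several of the 7 neuroblast temporal factor genes also pattern the embryo. Of these temporal factor genes, 3 were called lower in B at 2-4 hr, against 8.14% of all genes. By the authors' deposited table grh fell 3.72-fold, Kr 2.46-fold and nub 3.30-fold, with DESeq adjusted p of 1.52e-09, 2.42e-06 and 0.0186. The gene svp had a log2 of -4.15 without being called (DESeq adjusted p 0.130 in the authors' deposited table). Its mean at 2-4 hr was low, at 17.2 normalized reads over both conditions. None was a DESeq call at 0-2 hr, where nub, svp, grh and pdm2 (4 genes) had an unadjusted p below 0.05.

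Genes of asymmetric division were called lower in 9 of 17 at 2-4 hr, against 8.14% of all genes. At 0-2 hr 2 were called lower and 1 higher, against 5.61% and 5.56% of all genes. The gene pon, which encodes a partner of Numb, was lower both times, at a log2 of -1.81 and then -2.03 in the authors' deposited table (DESeq adjusted p 3.81e-25 and 3.32e-08). The same table called numb lower, at -0.39 and then -0.77 (DESeq adjusted p 0.000284 and 1.67e-11). The cortical polarity gene baz was lower at 2-4 hr, at -0.61 in the authors' deposited table (DESeq adjusted p 9.45e-08). Also lower at 2-4 hr were mud, loco and cno.

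The genes insc and mira, whose proteins orient the division and carry Prospero, were called at 2-4 hr. For insc the log2 was -0.06 at 0-2 hr and -1.74 at 2-4 hr in the authors' deposited table, with DESeq adjusted p of 1.0 and 1.25e-07. For mira it was -1.95 and then -1.77 in the authors' deposited table, with DESeq adjusted p of 0.187 and 2.48e-07. The difference between the collections was not tested for either gene. The growth regulator gene brat was called higher at 0-2 hr and lower at 2-4 hr, at a log2 of 0.24 and then -0.26 in the authors' deposited table (DESeq adjusted p 0.00610 and 0.0448).

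Of 15 Notch pathway and E(spl) genes, 4 were called lower in B at 2-4 hr, against 8.14% of all genes. The receptor gene N fell 2.24-fold, the coactivator gene mam 1.82-fold, bib 1.93-fold and the protease gene kuz 1.204-fold in the authors' deposited table. Their DESeq adjusted p were 1.59e-26, 2.84e-13, 0.0155 and 0.0430. The log2 was below 0 for all 15 at 2-4 hr, and the 7 bHLH repressor genes of the E(spl) complex were not called. Their log2 there ran from -0.71 for E(spl)m7-HLH to -1.87 for E(spl)mdelta-HLH in the authors' deposited table. None of the 15 was a DESeq call at 0-2 hr, and none had an unadjusted p below 0.05. At 2-4 hr 8 of the 15 had an unadjusted p below 0.05, with E(spl)m5-HLH and E(spl)m8-HLH among them.

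Among 9 genes of ganglion mother cell, neuron and glia fates 1 was called at each time, zfh1, lower in B at a log2 of -0.35 and then -0.83 by the authors' deposited table (DESeq adjusted p 0.0149 and 7.01e-11). Over all genes 5.61% were called lower in B at 0-2 hr and 8.14% at 2-4 hr. The glial switch genes gcm and gcm2 were not called at either time.

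**Figure D4:**
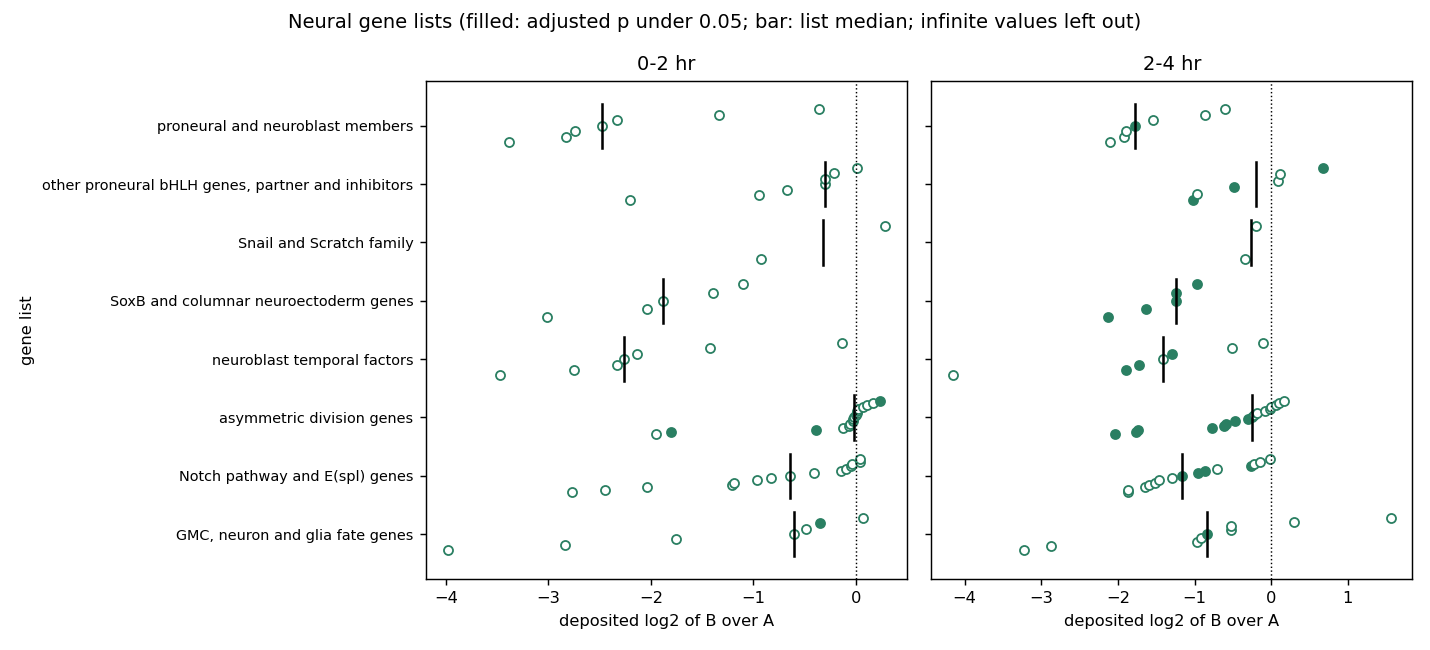
Deposited log2 of B over A for each gene of 8 neural gene lists at 0-2 hr and 2-4 hr, with filled points for an adjusted p under 0.05 and bars for list medians. All 5 SoxB and columnar genes are filled and below 0 at 2-4 hr, and 1 of the 7 proneural and neuroblast genes is filled there.

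Of 6939 genes with a mean of at least 20 at both times, the 5 nearest to the pair of median log2 values of the 7 were CG30428, side-V, stumps, GstD9 and Dscam1. Their distances were 0.0862 to 0.136 on the log2 scale, over 2 comparisons. By the authors' deposited table CG30428 and GstD9 were called lower by DESeq at both times, and side-V, stumps and Dscam1 at 2-4 hr.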

How the data were processed

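Per the labels' protocols, RNA came from a Trizol extraction and NuGEN Ovation libraries depleted of rRNA. Tools listed in the submitters' processing notes are DESeq, HTSeq 0.5.4p3 and TopHat2 2.0.13, and the genome build listed is dm3, without saying which tool did what. Per the file headers, the authors deposited a normalized signal for each gene, the mean read count after scaling over both conditions. Per the file headers, the authors computed the fold of B over A and deposited its log2. The p-value of each gene, raw and adjusted, is the authors' too.

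A further 4 columns, the means of conditions A and B in each table, were not used as values of a group, because neither headers nor labels say which libraries they average. The deposited folds, which rest on the same means, are copied as the authors' own comparison. Before the 4 columns were set aside, libraries had been separated out of them. Limma and permutation tests had been run on these libraries, and the outcome was known. How many of the 7 genes passed a test then moved when single libraries were left out, and at both times late-embryo RNA looked abundant in 1 library of A. This is disclosed because it was seen. It cannot be checked from the values given, and no value here was taken from it. The deposited folds rest on the means of all libraries of A, that 1 included.

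The genes and lists were chosen with earlier results of these data known. The test was the authors' own, at an adjusted p under 0.05, which was checked to be a Benjamini-Hochberg adjustment over all genes. The check and the counting of calls were tested on simulated data. Symbols came from a name table (15002 of 15682 IDs matched), which gave no ID for h, Dl, pcl, CG17181, nos and sry-alpha. The IDs it gave for da and wupA, like that of esg, had no row. None of these genes gave a value. Named genes are the 7, Clamp, the flanking genes, the 5 nearest, and up to 4 per list and time by lowest adjusted p, of which some uncalled ones are not printed. Marker genes and mud, loco, cno, E(spl)m7-HLH and E(spl)m8-HLH fall outside this rule and were named after their values were seen. Exon lengths and overlaps came from a BDGP6 annotation, and no coordinates are given. Alternatives were an adjusted p under 0.01 or 0.1, a mean of at least 20, at least 2-fold, and recentring. Python 3.11.15, numpy 2.4.6, pandas 2.3.3 and matplotlib 3.10.9 were used.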

Additional observations from a re-analysis of the deposited data

How the results depend on the processing

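Of the 7 genes, 1 was called at 2-4 hr, and 2 at an adjusted p under 0.1, pros and ac. Over all genes these thresholds called 15.5% and 18.7%. At 0-2 hr 0 were called at each of the thresholds, filters and fold limits tried. Of the 66 other listed genes, calls went from 5 to 2 at 0-2 hr and from 27 to 14 at 2-4 hr when at least 2-fold was asked, since smaller differences then do not count. The same limit took the share over all genes from 11.2% to 2.32% at 0-2 hr and from 15.5% to 4.6% at 2-4 hr. Recentring on the median log2 of all genes with a mean of at least 20 moved no sign among the 7. Those medians were -0.006 at 0-2 hr and -0.008 at 2-4 hr, too close to 0 for any sign to move. The planned pseudocount, equal-sum scaling, exact permutation test and leaving out of each library are not reported, since they need the condition means, and what had been run of them before those means were set aside was dropped. How far the calls rest on single libraries is therefore not shown by any value here. No paired analysis was possible because the deposited comparisons carry no replicate numbers.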

Other observations

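Eggshell genes went in both directions at 0-2 hr. In the authors' deposited table Cp36 and Cp38 were higher in B, at a log2 of 7.09 and 6.40, and Vm26Aa, Vm26Ab, Vml and psd were lower, at -3.71 to -5.65. None was called (DESeq adjusted p 0.157 to 0.723), against 11.2% of all genes. For 2, Cp36 and Cp38, the unadjusted p was below 0.05. The summed mean of the 6 was 15.8 normalized reads at 2-4 hr, against 365 at 0-2 hr, in tables normalized separately.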
